A study of Mus musculus with 6 samples.

Results

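This account covers 10 genes for transcription factors of the activator protein 1 (AP-1) and BATF groups, *Fos*, *Fosb*, *Fosl1*, *Fosl2*, *Jun*, *Junb*, *Jund*, *Batf*, *Batf3* and *Atf3*, in activated group 2 innate lymphoid cells (aILC2s) cultured with or without melatonin. The 10 were taken by name from the FOS, JUN and BATF/ATF families, and 9 of them are among the 16381 genes listed with a value. *Fosb* is not listed, and no value, fold change or test is given for it. All 9 listed members passed the filter on low values (at least 10 normalized counts in at least 1 sample), as did 14419 genes in all. *Batf3* reached 10 in its vehicle samples only.

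Bulk RNA sequencing was done on ILC2s from the lungs of mice given recombinant mouse IL-33 through the nose at 0.5 µg per day for 3 days. Both groups were wild-type BALB/cJ mice, a strain that makes little melatonin of its own, and the study's methods give females aged 6 to 8 weeks. The cells were sorted as live, CD45+, lineage-negative, ST2+ and CD127+ and were then kept for 24 h with 250 µM melatonin (3 samples) or with its solvent DMSO as vehicle (3 samples), and all 6 samples therefore share the IL-33 challenge and the culture. The labels do not say whether the 3 samples of a group came from separate mice or cultures, so p-values measure the spread between these samples, which may be partly technical. The sex-linked transcripts given below differed between melatonin replicate 1 and replicates 2 and 3, so the melatonin samples were not all repeats of the same source.

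AP-1 is a dimer. FOS proteins pair with JUN proteins, JUN proteins can also pair with each other, and the dimer binds a short DNA element through a basic leucine zipper (bZIP). BATF and BATF3 lack a transactivation domain of their own, pair with JUN proteins and bind beside the interferon regulatory factors IRF4 or IRF8 in lymphocytes and dendritic cells, while ATF3 is a stress-induced bZIP factor that often represses. Several of these genes are immediate early genes, whose mRNA rises within minutes of MAP kinase signalling and decays quickly, so a sample at 24 h shows their level long after any first burst.

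The estimated counts per sample came to between 17056267 and 20511700, and the values below are normalized counts, meaning estimated counts divided by one size factor per sample. One read was worth between 0.933 and 1.09 normalized counts, and 3 counts were taken as the floor of detection, which covers counting error only. All 13 ILC2 markers were listed, with sums between 146870 and 155160 in vehicle and between 113500 and 115890 in melatonin. Of these, *Il1rl1* and *Rora* rose, *Gata3*, *Icos*, *Ptprc* and *Il17rb* did not pass the test, and the others fell (limma, adjusted p under 0.05). Melatonin replicate 1 stood apart from the other melatonin samples, with a limma sample weight of 0.301 against 0.707 to 2.01 elsewhere. *Xist*, the RNA that coats the silenced X chromosome in female cells, stood at 579 and 1091.5 in melatonin replicates 2 and 3 and at 13.6 or less in the other 4 samples, while the Y-linked *Ddx3y* was at 0 in those 2 samples and between 746 and 1071 in the other 4, against the sex given in the methods. No member lies on the X or Y chromosome, and a part of sex in the results was not tested. The 2 samples without Y-linked transcripts are both melatonin samples, so sex is partly confounded with melatonin. The results below are also given without melatonin replicate 1 where this changes a call. In that setting sex and melatonin split the samples alike and cannot be told apart. The 4 samples with Y-linked transcripts are the 3 vehicle samples and melatonin replicate 1, so a comparison among them has a single melatonin sample, the one with the lowest weight, whose spread is assumed to be that of vehicle. Its values are given as those of melatonin replicate 1 alone and decide no call. Library numbers in the labels run from 20 to 22 for melatonin and from 32 to 34 for vehicle, and whether a batch ran along with that numbering cannot be told apart from melatonin.

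With melatonin, 2 of the 9 listed members rose, *Fos* and *Jund*, and 4 fell, *Fosl1*, *Batf*, *Batf3* and *Atf3* (limma, adjusted p under 0.05). *Fosl2*, *Jun* and *Junb* did not pass the test. Of all 14419 genes tested, 24.5% rose and 24.7% fell, 49.2% in either direction, so a call in itself is common in this comparison. The median log2 fold change of the 9 members was −0.22, beside −0.005 for all genes tested, and moved to −0.082 with quantile normalization and −0.14 without melatonin replicate 3, and was −0.13 for melatonin replicate 1 alone against vehicle. Their median size regardless of sign was 0.69, beside 0.45. The 3 melatonin values lay wholly above the 3 vehicle values for 2 members and wholly below them for 5, where 30.0% and 30.3% of all genes tested did so, 60.4% in either direction. In bulk RNA, fewer cells of a type and less RNA per cell cannot be told apart.

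**Figure D1:**
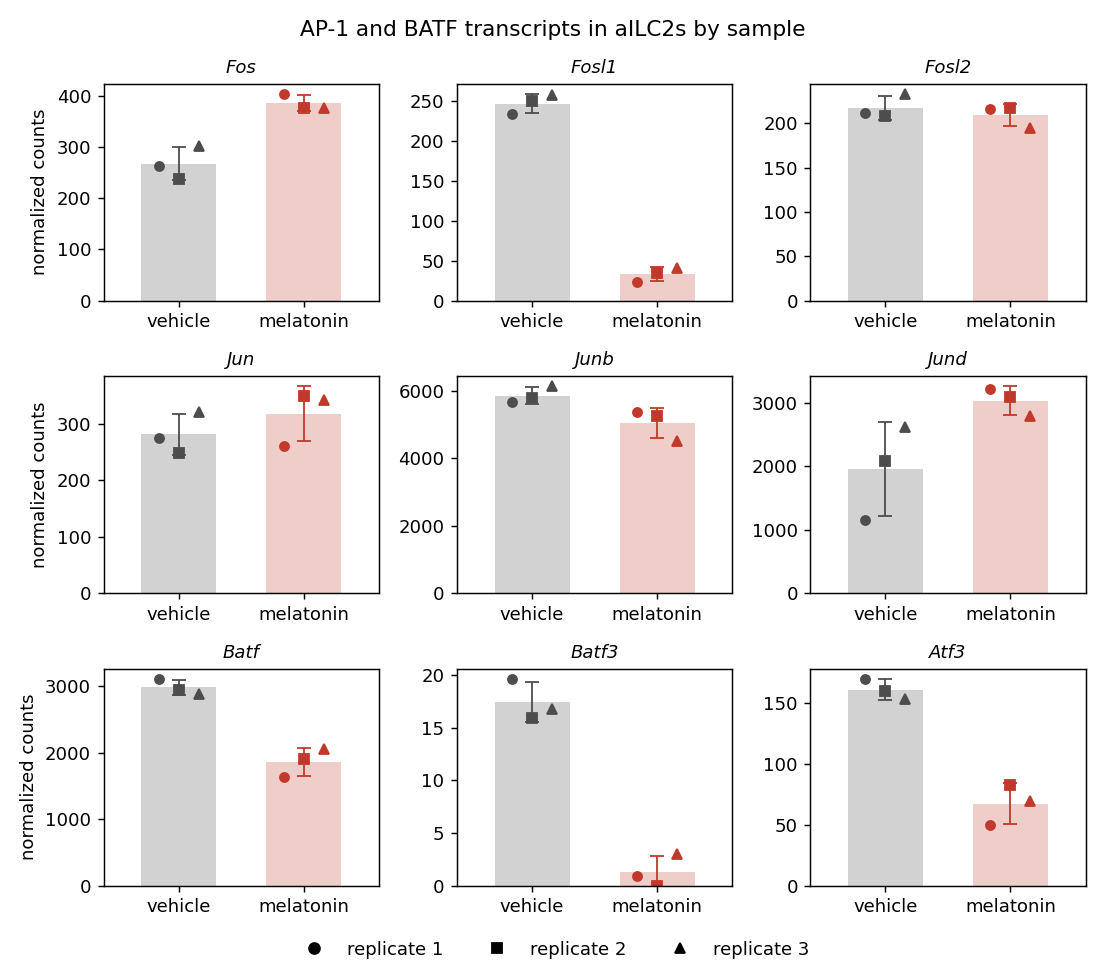
Normalized counts (linear axes from 0) of the 9 listed members in each sample, with bars for the group mean, error bars for the SD (n = 3) and one marker shape per replicate number. *Fosl1* falls from 247 to 33.1 and *Batf3* to 4 estimated counts over the group, while *Fosl2* and *Jun* overlap between vehicle and melatonin.

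To show the control regions of members that moved in opposite directions, the promoter windows of *Fos* and *Batf*, both on chromosome 12, are given with those of *Jun*, which did not pass the test, and *Atf3*, which fell. The windows run from 250 bases before to 50 bases after the annotated start (RefSeq, GRCm38.p6), 5′ to 3′ on the strand of the gene, and 9 of the 10 members had one; *Fosl1* did not. *Fos* is at chr12:85473640-85473939 (+), *Batf* at chr12:85686470-85686769 (+), *Jun* at chr4:95052173-95052472 (−) and *Atf3* at chr1:191183284-191183583 (−). Capitals mark TGACG, the half-site of the cyclic AMP and ATF element, or its reverse complement CGTCA, and in *Jun* the element TGACATCA.
Fos: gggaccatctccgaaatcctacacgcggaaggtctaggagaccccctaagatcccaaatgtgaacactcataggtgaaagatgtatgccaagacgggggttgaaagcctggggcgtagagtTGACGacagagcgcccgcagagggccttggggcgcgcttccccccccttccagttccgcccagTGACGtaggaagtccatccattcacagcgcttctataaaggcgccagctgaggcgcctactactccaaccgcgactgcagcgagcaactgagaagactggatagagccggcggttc
Batf: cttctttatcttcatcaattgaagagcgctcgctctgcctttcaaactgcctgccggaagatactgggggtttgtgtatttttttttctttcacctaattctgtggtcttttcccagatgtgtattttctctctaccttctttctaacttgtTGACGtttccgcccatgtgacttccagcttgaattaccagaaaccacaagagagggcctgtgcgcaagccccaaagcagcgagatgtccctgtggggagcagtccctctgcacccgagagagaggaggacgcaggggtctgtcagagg
Jun: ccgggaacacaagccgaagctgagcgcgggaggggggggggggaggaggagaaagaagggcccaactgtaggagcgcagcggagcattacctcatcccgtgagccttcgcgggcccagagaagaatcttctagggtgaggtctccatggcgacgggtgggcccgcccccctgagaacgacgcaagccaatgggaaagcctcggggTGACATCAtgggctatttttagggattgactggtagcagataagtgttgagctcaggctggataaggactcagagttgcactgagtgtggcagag
Atf3: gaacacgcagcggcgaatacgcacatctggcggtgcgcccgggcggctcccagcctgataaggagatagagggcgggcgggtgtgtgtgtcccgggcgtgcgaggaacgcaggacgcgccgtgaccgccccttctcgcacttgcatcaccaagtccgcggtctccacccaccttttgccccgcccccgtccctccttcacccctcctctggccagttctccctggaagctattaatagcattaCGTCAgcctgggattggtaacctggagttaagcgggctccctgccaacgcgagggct

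The TGACG letters, searched on both strands and contained also in the full element TGACGTCA, were present in the windows of 5 members. They began 129 and 66 bases before the start in *Fos*, 98 before it in *Batf*, 7 before it in *Atf3*, 60 before it in *Fosb* and 106 before it in *Junb*. Of 32851 mouse promoter windows of this length, 20.8% held TGACG. TGACATCA began 45 bases before the start in *Jun* and was present in 3.62% of windows. No window of a member held the classical AP-1 element TGANTCA (7.81% of windows), the full TGACGTCA (1.79%) or the letters TGACNNNGC (12.4%). None held a CArG box, the element bound by serum response factor (1.63%). Composite sites of BATF with IRF4 or IRF8 were not searched for. A match is only a match of letters, and a missing match says nothing of more distant elements.

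Among the FOS genes, *Fos* rose and *Fosl1* fell. *Fos* (ENSMUSG00000021250, chr12:85520658-85524047, + strand, GRCm39) encodes c-FOS, the best known immediate early partner of JUN. Its normalized counts were 263, 237 and 301 in vehicle replicates 1, 2 and 3 and 403, 377 and 376 in melatonin replicates 1, 2 and 3. Every melatonin sample was above every vehicle sample. The means were 267 ± 32.2 and 385 ± 15.6 (SD, n = 3), and the log2 fold change was 0.53 (SE 0.13, limma adjusted p = 0.0077). The call held in each of 19 alternatives, with log2 fold changes between 0.45 and 0.63.

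*Fosl1* (ENSMUSG00000024912, chr19:5497575-5505974, + strand) encodes FRA-1, a FOS protein without the transactivation domain of c-FOS. It was at 234, 250 and 257 in vehicle and at 23.2, 35.1 and 41.1 in melatonin. The groups were far apart, and the highest melatonin sample was below the lowest vehicle sample by a wide margin. The mean fell from 247 ± 12.2 to 33.1 ± 9.09, by 2.90 on the log2 scale (SE 0.23, limma adjusted p = 5.6e-05), and only 1.64% of all genes tested had a lower log2 fold change. Over the 19 alternatives it lay between −3.07 and −2.60 and was always called. *Fosl1* overlaps *Ccdc85b* on the opposite strand, and since the counting is not stated to use strand, reads from the overlap cannot be told apart. *Ccdc85b* itself had a log2 fold change of 0.05 (limma adjusted p = 0.749).

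*Fosl2* (ENSMUSG00000029135, chr5:32292707-32315186, + strand) encodes FRA-2, the closest relative of FRA-1. It was at 211, 208 and 233 in vehicle and at 216, 217 and 195 in melatonin. The groups overlapped in part, with means of 217 ± 13.6 and 209 ± 12.5 and a log2 fold change of −0.05 (SE 0.13, limma adjusted p = 0.753). The sign of this difference turned, to 0.070, when a dependence on GC content was removed.

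Among the JUN genes, *Jund* passed the test narrowly, and *Jun* and *Junb* did not. *Jun* (ENSMUSG00000052684, chr4:94937271-94940459, − strand) encodes c-JUN, the main target of the JUN kinases, in a single exon. It was at 274, 248 and 321 in vehicle and at 261, 349 and 343 in melatonin. The lowest melatonin sample was within the vehicle range and the other two were above it. The means were 281 ± 36.9 and 318 ± 48.7, with a log2 fold change of 0.17 (SE 0.16, limma adjusted p = 0.388), and −0.096 for melatonin replicate 1 alone against vehicle. With 1 sample left out it lay between 0.086 (vehicle replicate 2) and 0.30 (melatonin replicate 1) and was never called.

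*Junb* (ENSMUSG00000052837, chr8:85701113-85705359, − strand), also of a single exon, encodes a JUN protein that pairs with BATF in lymphocytes. Its normalized counts were 5649, 5766 and 6120 in vehicle and 5352.5, 5242 and 4516 in melatonin. The melatonin samples all lay under the vehicle samples, but the gap was small beside the spread within melatonin. The means were 5845 ± 245 and 5037 ± 455, with a log2 fold change of −0.22 (SE 0.09, limma adjusted p = 0.0637). It was called in 3 of the 19 alternatives, namely sample weights (limma adjusted p = 0.0367), upper quartile scaling (0.0258) and without melatonin replicate 1 (0.0232). The log2 fold change shrank to −0.075 when a dependence on transcript length was removed (adjusted p = 0.537) and to −0.082 after quantile normalization (0.457). Without melatonin replicate 3 it was −0.14 (adjusted p = 0.158). *Junb* overlaps *Prdx2*, a peroxiredoxin gene on the opposite strand, which fell from a mean of 3821 to 2219 (log2 fold change −0.79, SE 0.09, limma adjusted p = 0.00026), and reads of the overlap cannot be told apart here.

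*Jund* (ENSMUSG00000071076, chr8:71151599-71153265, + strand) encodes the JUN protein that is most constantly expressed, again from a single exon. Its normalized counts were 1160.2, 2087 and 2619.9 in vehicle and 3222, 3099 and 2787 in melatonin. Every melatonin sample was above every vehicle sample, though vehicle replicate 3 came close to melatonin replicate 3, and the vehicle samples were widely spread. The means were 1956 ± 739 and 3036 ± 224, with a log2 fold change of 0.71 (SE 0.25, limma adjusted p = 0.0401). The call was lost in 7 of 19 alternatives, among them the replicate number as a block (adjusted p = 0.0516), without vehicle replicate 2 (0.0647), without melatonin replicate 1 (0.0822), 2 (0.0996) or 3 (0.0609), and the log2 fold change dropped to 0.37 without vehicle replicate 1, still called (0.0442). In that sample *Jund* was 0.67 below the vehicle mean on the log2 scale, where the median of 191 genes of at least 60% GC was 0.04 below it, and the part of GC content (67.2% in *Jund*) in this spread was not tested further.

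Among the BATF and ATF genes, all 3 members fell. *Batf* (ENSMUSG00000034266, chr12:85733423-85755861, + strand) encodes a bZIP factor needed for effector differentiation in several lymphocytes. It was at 3112, 2949.5 and 2891 in vehicle and at 1634, 1903 and 2051 in melatonin. The groups were well apart, and melatonin replicate 1 was the lowest sample. The mean fell from 2984 ± 115 to 1863 ± 211, by 0.69 on the log2 scale (SE 0.10, limma adjusted p = 0.00063). The fall was called in all 19 alternatives and was smaller, at −0.35 (adjusted p = 0.0048), when a dependence on transcript length was removed.

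*Batf3* (ENSMUSG00000026630, chr1:190830044-190841142, + strand) encodes a relative of BATF best known from cross-presenting dendritic cells. It was near the floor, at 19.6, 15.9 and 16.8 normalized counts in vehicle and 0.934, 0 and 3.02 in melatonin. These values rest on 21, 17 and 16 estimated counts in vehicle and 1, 0 and 3 in melatonin. The sums of 54 and 4 counts gave a ratio of 0.0768, or a level 13.0 times lower with melatonin (exact 95% interval 4.80 to 49.5, for counting error only). The fall was called (limma adjusted p = 0.0030), but *Batf3* passed the filter on low values through vehicle only, so the call is a description only. The size of the fitted log2 fold change, −3.21, depends on the pseudocount and was −4.67 with 0.1 and −1.28 with 10.

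*Atf3* (ENSMUSG00000026628, chr1:190902493-190950241, − strand), the stress-induced member, was at 170, 160 and 153 in vehicle and at 49.5, 83.0 and 69.4 in melatonin. Every melatonin sample was far below the vehicle samples, which differed little among themselves. The mean fell from 161 ± 8.38 to 67.3 ± 16.9, by 1.28 on the log2 scale (SE 0.21, limma adjusted p = 0.0015). Across the 19 alternatives it was between −1.44 and −1.07 and was always called.

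**Figure D2:**
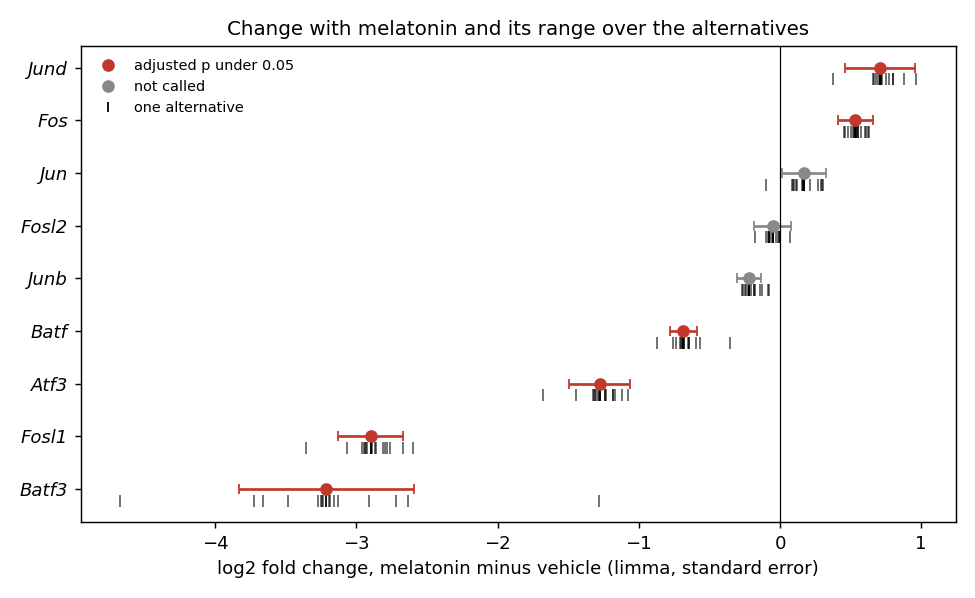
Log2 fold change of each listed member, melatonin minus vehicle, as points with the limma standard error, red where the adjusted p was under 0.05; short ticks below each point give the value in each alternative setting. The ticks of *Fosl1*, *Atf3*, *Batf* and *Fos* stay on one side of 0, 1 tick of *Fosl2* (GC correction) crosses it, as does 1 of *Jun* (melatonin replicate 1 alone against vehicle), and those of *Batf3* spread with the pseudocount.

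Because *Batf3* is a dendritic cell gene, markers of other cells were read beside it. Of 6 dendritic cell markers, a list added after the data were seen, *Clec9a* was not listed, *Flt3* was at 6.30 or less in vehicle and 2.19 or less in melatonin, and *Xcr1* was between 579 and 802 in all 6 samples. *Cd74* and *H2-Aa*, of MHC class II presentation, fell, with log2 fold changes of −2.41 and −2.64 (limma adjusted p = 0.00073 and 0.00048), and *Zbtb46* was between 16.8 and 21.0 in vehicle and between 2.80 and 14.1 in melatonin (adjusted p = 0.126). Their sum was between 2267 and 2855 in vehicle and between 979 and 1125 in melatonin. All 6 myeloid markers were listed, with sums between 1155 and 1335 in vehicle and between 256 and 698 in melatonin, with *Itgam*, which encodes CD11b, between 55.4 and 61.6 in vehicle and between 0 and 24.1 in melatonin. The sum of the 3 natural killer markers was between 112 and 125 in vehicle and between 0 and 4.02 in melatonin, and that of T cell markers, of which *Cd4*, *Cd8a* and *Cd5* were not listed, was between 206 and 252 and between 40.4 and 120. The neutrophil sum, without the unlisted *Ly6g*, was between 9.37 and 70.0 in vehicle and between 0 and 4.37 in melatonin. Of the B cell markers *Cd79a* alone was listed, between 2.10 and 9.33 in vehicle and between 0 and 2.01 in melatonin. Of 4 endothelial and stromal markers *Pecam1* alone was listed, between 1001 and 1066 in vehicle and between 310.0 and 416 in melatonin. Of the 3 epithelial markers, *Sftpc* was between 122 and 389 in vehicle and between 3.02 and 6.54 in melatonin, *Scgb1a1* between 21.6 and 1045 and between 0 and 1.01, and *Epcam* was higher with melatonin, at 623 to 745 and 1016 to 1229.8. By the study's methods the sort kept CD45+ cells and removed those with CD3, CD4, CD5, T cell receptors, B220, CD335 (the product of *Ncr1*), CD11c, CD11b, Gr-1, FcεRIα or Ter119. Mast cell and basophil markers, without the unlisted *Fcer1a*, summed to between 2.81 and 16.8 in vehicle and between 1.87 and 36.2 in melatonin. The erythroid sum was between 29.3 and 50.6 in vehicle and between 24.04 and 51.3 in melatonin. That of the 3 epithelial markers was between 873 and 2068 in vehicle and between 1021.5 and 1236 in melatonin. All of these sums overlapped between the groups. The dendritic, myeloid, neutrophil, natural killer, T cell and B cell sums moved with the falls of *Fosl1*, *Batf3*, *Batf* and *Atf3*. So did the levels of *Pecam1*, *Sftpc* and *Scgb1a1*. The part of these markers in those falls was not tested.

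*Batf3* and *Atf3* are neighbours on chromosome 1, with start sites 85015 bases apart and no other listed gene between them, and both fell. *Fos* and *Batf* lie on chromosome 12 with start sites 212765 bases apart and moved in opposite directions. The one listed gene between them is *Jdp2*, which encodes a bZIP factor that represses AP-1 sites. *Jdp2* was at 377, 452 and 723 in vehicle and at 905, 1184 and 829 in melatonin. Every melatonin sample was above every vehicle sample, and *Jdp2* rose (log2 fold change 0.95, SE 0.23, limma adjusted p = 0.0088). It was named here after its value was seen, for its position.

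Levels of different members were set against each other as normalized counts per kilobase of the longest annotated transcript. On this scale *Junb* (3231 in vehicle and 2784 in melatonin), *Batf* (3061 and 1911) and *Jund* (1173 and 1821) were the most abundant. The other members were well below these, with *Fosl1* at 133 and 17.8, *Fos* at 126 and 182, *Jun* at 88.2 and 99.6, *Atf3* at 76.0 and 31.7, *Fosl2* at 31.2 and 30.0 and *Batf3* at 15.7 and 1.19. Neighbours in this order whose samples overlapped in vehicle were *Junb* and *Batf* (SDs of 136 and 118), *Fosl1* and *Fos* (6.52 and 15.2) and *Jun* and *Atf3* (11.6 and 3.95). In melatonin the overlapping neighbours were *Batf* and *Jund* (217 and 135) and *Atf3* and *Fosl2* (7.95 and 1.79). With the mean transcript length instead, *Junb* (mean 4702) and *Batf* (3960) did not overlap in vehicle. There *Atf3* (93.8) stood above *Jun* (88.2), and *Fosl1* and *Fos* were at 273 and 244. The samples overlapped in each of these pairs. In melatonin *Batf* (2472) and *Jund* (1821) then did not overlap, while *Atf3* (39.2) and *Fosl1* (36.6) did.

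The summed level of the 9 members was 7474, 7908 and 8421 per kilobase in vehicle and 6908, 7086 and 6642 in melatonin, so that the groups did not overlap and melatonin was the lower. JUN genes made up 56.5% ± 3.94 of the sum in vehicle and 68.3% ± 3.82 in melatonin. BATF and ATF genes made up 39.9% ± 3.91 and 28.3% ± 3.80, and FOS genes 3.66% ± 0.142 and 3.35% ± 0.110. The level of the JUN genes overlapped between the groups, at 3905 to 5055 per kilobase in vehicle and 4275 to 4973 in melatonin, while that of the BATF and ATF genes was 3052 to 3289.5 and 1700.2 to 2139. The share of *Jund* was 14.6% ± 4.79 in vehicle and 26.5% ± 1.42 in melatonin and that of *Batf* 38.7% ± 3.77 and 27.8% ± 3.71, while that of *Junb* was 40.8% ± 0.892 and 40.4% ± 2.65. Within the FOS genes, *Fosl1* and *Fos* took 1.67% and 1.59% of the sum in vehicle and 0.259% and 2.65% in melatonin. These shares are a description and were not tested.

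**Figure D3:**
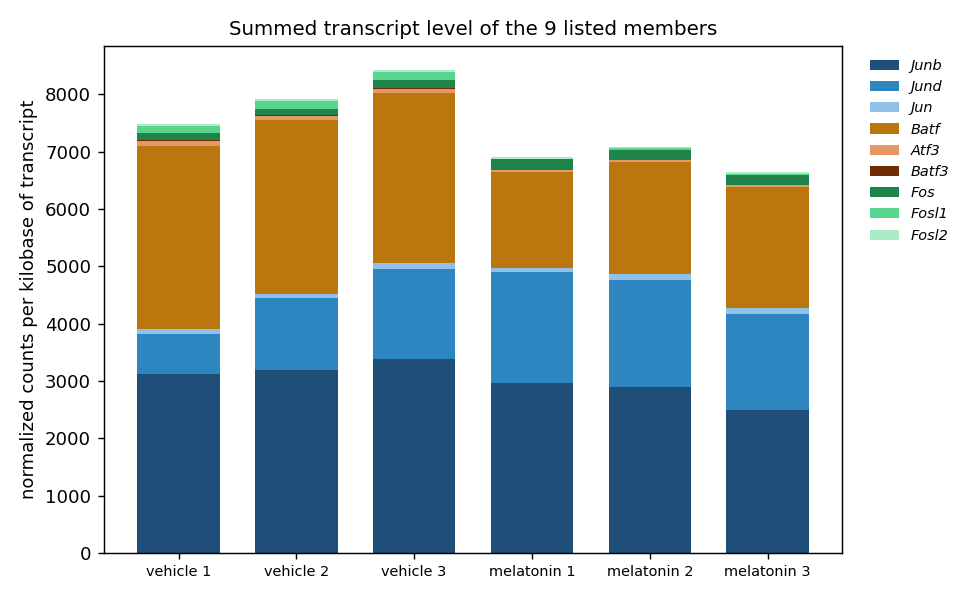
Summed normalized counts per kilobase of the longest transcript (linear axis from 0), stacked by member, in each of the 6 samples. *Junb*, *Batf* and *Jund* fill most of each bar, and the *Batf* layer is thinner in the 3 melatonin samples, whose totals lie between 6642 and 7086 against 7474 to 8421 in vehicle.

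Ratios of members within a sample, taken as log2 of each value plus 1 and without regard to length, depend little on the size factor except near the floor, and 8 were compared by an exact two-sided permutation test over the 6 samples, which cannot give a p below 0.1. *Fosl1* over *Fosl2* was 0.18 ± 0.07 in vehicle and −2.66 ± 0.47 in melatonin on the log2 scale, a difference of −2.84. *Atf3* over *Jun* differed by −1.45, *Junb* over *Jund* by −0.93, *Batf* over *Junb* by −0.47 and *Fos* over *Fosl2* by 0.59. *Batf* over *Batf3* differed by 2.53, a size set by the pseudocount, since *Batf3* was at or near the floor in melatonin, and it was 3.99 with a pseudocount of 0.1 and 0.60 with 10. *Jun* over *Junb* differed by 0.39 (exact p = 0.2) and *Jun* over *Jund* by −0.54 (exact p = 0.3), and these 2 overlapped. Without vehicle replicate 1, *Junb* over *Jund* differed by −0.62 and *Jun* over *Jund* by −0.22, and without melatonin replicate 3 *Jun* over *Junb* differed by 0.25. Of the ratios, the 6 named first did not overlap between the groups, and each had the smallest p the exact test allows, 0.1 (0.133 adjusted over the 8). For single genes, 60.4% of all those tested did not overlap either, so a lack of overlap is common in this comparison. 

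For the member with the highest mean normalized count, not scaled to length, and for that with the largest change among those with a mean of at least 100, the genes with the most similar pattern were sought among 9990 abundant genes. *Junb* was most like *Nrde2* (Pearson r = 0.982 over the 6 samples), *Irak4* (0.976) and *Scly* (0.972), and 115 genes had an r over 0.9. *Fosl1* was most like *Il1r2*, *Mrps18b* and *Vasp*, each with an r of 0.999, but 2029 genes had an r over 0.9 with it. The 6 samples share the split into treatment groups, so these values are a description only.

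Other bZIP genes and the BATF partners moved in both directions. Of 26 such genes, 24 were listed and 23 tested, and 7 rose and 5 fell, beside 24.5% and 24.7% of all genes. In either direction 52.2% of the list was called, close to the 49.2% of all genes. The median log2 fold change was −0.04, and its sign turned in several alternatives. *Irf4*, which encodes the factor that binds with BATF and JUN in lymphocytes, was at 3026, 2728 and 2992 in vehicle and at 468, 1249 and 1328 in melatonin. Melatonin replicate 1 was the lowest, and no sample overlapped. *Irf4* fell by 1.66 on the log2 scale (SE 0.34, limma adjusted p = 0.0037), and its log2 fold change was −2.64 for melatonin replicate 1 alone against vehicle. *Irf8*, its relative of the dendritic and myeloid lineages, fell from 1276 ± 118 to 575 ± 140 (log2 fold change −1.18, SE 0.17, limma adjusted p = 0.00074), beside the marker sums given above. *Atf5* fell from 78.7 ± 9.50 to 27.9 ± 9.65 (−1.52, limma adjusted p = 0.0038).

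Among the partners that rose, *Crem*, a cyclic AMP responsive factor, went from 1048.5 ± 119 to 2899 ± 1127 (log2 fold change 1.41, limma adjusted p = 0.0012). *Bach2*, a repressor that competes with AP-1 in lymphocytes, went from 14.5 ± 2.18 to 75.5 ± 45.5 (2.14, adjusted p = 0.0037). *Nfe2l2*, which encodes the antioxidant regulator NRF2, went from 948 ± 50.5 to 2215 ± 386 (1.21, adjusted p = 0.00015). *Cebpb*, a bZIP factor of inflammation, was at 12.1, 59.6 and 189 in vehicle and 385, 606 and 247 in melatonin. The groups did not overlap, but vehicle replicate 1 was far below the others. *Cebpb* rose by 2.86 on the log2 scale (limma adjusted p = 0.0167), by 1.85 without vehicle replicate 1, and was not called without melatonin replicate 2 or by limma without the trend (adjusted p = 0.0641 in both).

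Of 21 genes of the MAP kinase cascades and of the serum response factor group, which act upstream of FOS and JUN, 9 rose and 2 fell, beside 24.5% and 24.7% of all genes, with a median log2 fold change of 0.31 (0.56 for melatonin replicate 1 alone). In either direction 52.4% of the list was called, close to the 49.2% of all genes. The largest rises were those of *Map3k7*, the kinase TAK1, from 1196 ± 246 to 2513 ± 319 (1.09, limma adjusted p = 0.0008), *Mapk9*, the JUN kinase JNK2, from 1722 ± 131 to 3084 ± 299 (0.84, adjusted p = 0.00026), and *Map2k3* from 5174 ± 217 to 8557 ± 954 (0.72, adjusted p = 0.00042). *Mapk14*, the kinase p38 alpha, rose from 2775 ± 391 to 4229.8 ± 158 (0.62, adjusted p = 0.0018). *Mapk8*, the JUN kinase JNK1, was at 53.5 ± 3.67 and 57.9 ± 9.59 and did not pass the test (adjusted p = 0.73). The falls were those of *Elk3*, a ternary complex factor, from 2365 ± 60.7 to 864 ± 87.6 (−1.46, adjusted p = 2.3e-05), and *Mapk3*, the kinase ERK1, from 1418 ± 35.6 to 903 ± 127 (−0.66, adjusted p = 0.0014).

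Of 22 other immediate early genes, 21 were tested, and 9 rose and 5 fell, beside 24.5% and 24.7% of all genes, with a median log2 fold change of 0.33. That median was 0.52 with quantile normalization and 0.21 without vehicle replicate 1. *Egr1*, a zinc finger factor induced together with *Fos*, was at 781, 748 and 804 in vehicle and at 2591, 2539 and 2432 in melatonin. The replicates were close and the groups far apart, and *Egr1* rose by 1.70 (SE 0.08, limma adjusted p = 4.4e-06). *Klf2*, a quiescence and trafficking factor, rose from 104 ± 49.7 to 355 ± 108 (1.84, adjusted p = 0.0043). *Btg2*, an antiproliferative gene, rose from 654 ± 38.9 to 1868 ± 677 (1.46, adjusted p = 0.00065). *Ier3* fell from 466 ± 15.0 to 219 ± 46.6 (−1.11, adjusted p = 0.00082) and *Egr2* from 84.7 ± 5.83 to 41.3 ± 13.9 (−1.06, adjusted p = 0.0095). *Ccn1* was at 11.2, 1.87 and 40.9 in vehicle and at 0 in all 3 melatonin samples. Its call (limma adjusted p = 0.0155) was lost without vehicle replicate 1 (0.0513) or 3 (0.0779) and with quantile normalization (0.0533). *Ccn1* passed the filter on low values through vehicle only, so its call is a description only.

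Of 21 genes often given as AP-1 targets, all were listed and 19 were tested. By limma none rose (also none at an unadjusted p under 0.05, and none with voom) and 13 fell, beside 24.7% lower among all genes, with a median log2 fold change of −0.85, or −1.75 for melatonin replicate 1 alone against vehicle. The list holds the cytokine genes of these cells, whose transcription other factors also drive. It was chosen with earlier results known, and the study had reported *Il5*, *Il13* and *Csf2* as lower in these same data. The count of falls is therefore a description only. The largest falls were those of the chemokine genes *Ccl4*, at 126, 161 and 135 in vehicle and 0, 2.19 and 4.02 in melatonin, and *Ccl3*, at 161, 135 and 93.4 in vehicle and 0, 2.19 and 5.03 in melatonin, and of the collagenase gene *Mmp13*, at 67.2, 78.7 and 85.0 in vehicle and 0, 1.09 and 1.01 in melatonin. No sample overlapped in any of the 3. The natural killer, myeloid and dendritic marker sums given above were also lower in every melatonin sample, and their part in the falls of these targets was not tested. The fitted log2 fold changes of *Ccl4*, *Ccl3* and *Mmp13* were −5.81, −5.57 and −5.59 (limma adjusted p = 0.00012, 0.00022 and 5.6e-05), and between −3.65 and −3.02 with a pseudocount of 10. These 3 genes, and *Fasl* among the others that fell, passed the filter on low values through vehicle only. Their calls are a description only. *Il9*, named after its values were seen, was at 441, 462 and 511 in vehicle and at 5.60, 526 and 510 in melatonin, so that melatonin replicate 1 alone was low.

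**Figure D4:**
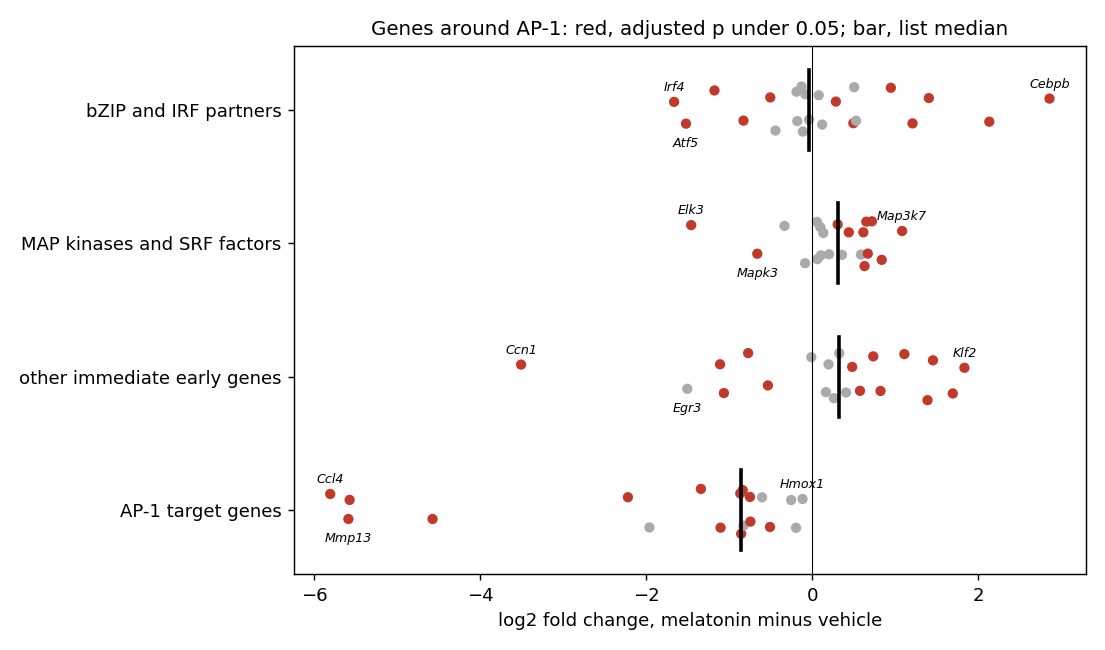
Log2 fold change, melatonin minus vehicle, of each tested gene in 4 lists around AP-1, red where the limma adjusted p was under 0.05 and grey otherwise, with a black bar at the list median. The medians are −0.04 for bZIP and IRF partners, 0.31 for the upstream kinases and serum response factors, 0.33 for other immediate early genes and −0.85 for AP-1 target genes, of which none is red to the right of 0.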

How the data were processed

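The 6 libraries were made from total RNA by the authors with a kit for low input; the labels give 10 ng of RNA and the methods 10 pg. Reads were trimmed in Partek Flow 12.9.0, aligned with STAR 2.7.8a to mm39 and assigned to Gencode M33 genes by an E/M algorithm that can divide a read. The deposited table was treated as a signal: estimated counts, for genes with at least 10 of them, divided by a median ratio size factor per sample. At a tolerance of 0.01, 64.7% of nonzero values were whole reads, so whole reads were not recovered.

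limma 3.58.1 (R 4.3.3) with a mean-variance trend was run on log2 of the value plus 1, which understates the change of low genes, for genes reaching 10 in at least 1 sample, with treatment as the only term and Benjamini-Hochberg adjustment over 14419 genes at 0.05. The script was tested on simulated data. Scripts ran in Python 3.11.15 with scipy 1.17.1, numpy 2.4.6, pandas 2.3.3 and matplotlib 3.10.9. Positions, names (16334 of 16381) and transcript lengths are from Gencode M39, GRCm39, and promoter windows from RefSeq, GRCm38.p6. The members and gene lists were chosen with earlier results of these data known. All members are named, with the 3 largest called rises and falls of each list, *Irf4*, *Nfe2l2*, *Mapk8* and *Mapk14*. The alternatives were other pseudocounts, filters, scalings, corrections for length and GC content, no trend, sample weights, voom, a replicate block, stricter thresholds and each sample left out; melatonin replicate 1, the one melatonin sample with Y-linked transcripts, against vehicle was added after seeing the data.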

Additional observations from a re-analysis of the deposited data

How the results depend on the processing

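*Fos*, *Fosl1*, *Batf* and *Atf3* kept their direction and their call at 0.05 in every alternative in which they could be fitted. *Batf3* did so too, but it passed the filter on low values through vehicle only and could not be fitted with a minimum mean of 100. The count of members that rose, 2, was 1 with upper quartile scaling, limma without the trend, the replicate block or an adjusted p under 0.01, between 1 and 2 with 1 sample left out, and 0 with a minimum log2 fold change of 1. *Fosl2* turned to 0.070 with the GC correction and *Jun* was −0.096 for melatonin replicate 1 alone. Same-numbered samples correlated at −0.11, 0.14 and −0.19 in their deviations, and differently numbered samples between −0.19 and 0.31. With deviations from means of 3 samples, these values cannot decide whether same-numbered samples share a source. The block took *Jund* (limma adjusted p = 0.0516) out of the calls.

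For the partners that fell, 5, the count was 3 with a minimum mean of 100, with quantile normalization, the GC correction, an adjusted p under 0.01 or a minimum log2 fold change of 1, between 3 and 6 with 1 sample left out (3 without vehicle replicate 2 or 3). Partners that rose were 4 with the larger fold change. A fit of melatonin replicate 1 alone against the 3 vehicle samples, which describes that library and borrows its spread from vehicle, gave a partners' median of 0.0069. The partners' median was −0.15 with the length correction. It turned to 0.0012 after rescaling to the same total, 0.0022 with the GC correction and 0.034 with sample weights. With 1 sample left out it ranged from −0.096 to 0.089, being above 0 without vehicle replicate 1 (0.0089) or melatonin replicate 1. A minimum log2 fold change of 1 left 1 upstream gene that rose and 1 that fell, 5 immediate early genes that rose and 3 that fell, 7 targets that fell and, of all genes, 866 that rose and 1392 that fell. A minimum mean of 100 left 3 immediate early genes and 8 targets that fell. At an adjusted p under 0.01, 2188 genes rose and 2267 fell. With the mean transcript length, FOS genes made up 5.36% of the sum in vehicle and 4.93% in melatonin. *Mapk8* turned to −0.035 with the length correction, −0.032 with the GC correction, −0.024 with sample weights and −0.013 without melatonin replicate 1, and was 0.22 without melatonin replicate 2. The cause was not tested in any of these cases, beyond the smaller number of genes or samples that some settings use.

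Depth limits the value of *Batf3*, which rests on 4 estimated counts in melatonin, and *Fosb* has no listed value and was not analysed here.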
